A study of Mus musculus with 4 samples.

Results

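The genes described here are those of 183 array probes that were detected on the array of B16-RIIL, a mouse melanoma line grown from lung metastases, and on none of the arrays of its 3 relatives. B16 is a melanoma of the C57BL6 mouse, and the parental line of the study was B16F1. B16F1 was injected intradermally into the back skin of C57BL6 mice, and B16-RI was grown from the lymph nodes to which it had spread after this round, which was 1 of 2. For the other round B16-RI was injected in the same way, and metastases of the lymph nodes gave B16-RII while those of the lung gave B16-RIIL. All of these lines were kept in DMEM with fetal bovine serum and antibiotics, with no further treatment in the labels, and the design text says that RNA of different passage numbers was pooled for each line. B16-RIIL is a single line, so a feature of melanoma cells from lung metastases and a feature of this culture cannot be told apart.

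The probes were chosen by their measured values on the array. The array analyzer gives each probe a signal-to-noise ratio (S/N), which relates its signal to the background around it, and a flag that scores errors at the spot. A probe was kept when its flag was at most 5000 on all 4 arrays, its S/N was below 3 in B16, B16-RI and B16-RII, and its S/N was at least 6 in B16-RIIL. Of 33012 probes, 31894 had flags in the limit, and the 183 probes are 0.574% of them. With 1 array per line in the labels there is no replicate check, no test between lines was run, and every S/N and signal below describes these arrays. The high S/N on B16-RIIL and the low S/N elsewhere follow from the choice and are not findings.

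Detection on a microarray means that labelled RNA gives more light at a spot than its surroundings do. A probe can cross this limit with a large or a small difference in signal, so the size of the signal was set beside the S/N. Melanoma cells descend from the neural crest and keep a pigment cell programme in culture, while lung tissue and the blood and vessel cells of a host animal have marker genes of their own. Chemokines are small secreted proteins that attract leukocytes, and interferons switch on a set of genes that includes several chemokines, antigen transporters and antiviral enzymes.

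A gene symbol was given for 76 of the 183 probes (41.5%), against 52.4% of all probes on the array. All 76 symbols were matched to a gene table from RefSeq (GRCm38.p6), and 23 of them have since been renamed. The other 107 probes carry only an identifier, which is a Celera-type mCG number for 77, a cDNA number starting with AK for 26 and another identifier for 4. No gene has 2 probes among the 183.

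RefSeq promoter windows of GRCm38.p6, from 250 bases before to 50 bases after the start of the gene, were found for 61 of the 76 genes. The 3 shown here, chosen after their sequences were seen, show windows with few, an intermediate number and many CpG, with each CpG in capitals. They belong to Isg20, an interferon-induced exonuclease (chr7:78913174-78913473, plus strand), to Vav1, a guanine nucleotide exchange factor of blood cells (chr17:57278850-57279149, plus strand), and to Ngfr, the p75 neurotrophin receptor of neural crest cells (chr11:95587649-95587948, minus strand).
Isg20: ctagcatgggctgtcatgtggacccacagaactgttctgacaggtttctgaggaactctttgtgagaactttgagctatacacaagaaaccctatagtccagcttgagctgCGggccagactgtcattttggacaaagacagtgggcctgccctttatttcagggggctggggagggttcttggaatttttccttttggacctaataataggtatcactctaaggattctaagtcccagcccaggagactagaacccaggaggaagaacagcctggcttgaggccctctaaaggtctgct
Vav1: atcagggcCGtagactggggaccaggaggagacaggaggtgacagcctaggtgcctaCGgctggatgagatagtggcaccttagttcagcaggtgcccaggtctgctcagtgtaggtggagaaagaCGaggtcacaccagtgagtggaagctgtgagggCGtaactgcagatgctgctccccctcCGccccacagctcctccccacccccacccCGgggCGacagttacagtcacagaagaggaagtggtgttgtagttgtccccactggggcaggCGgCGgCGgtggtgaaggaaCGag
Ngfr: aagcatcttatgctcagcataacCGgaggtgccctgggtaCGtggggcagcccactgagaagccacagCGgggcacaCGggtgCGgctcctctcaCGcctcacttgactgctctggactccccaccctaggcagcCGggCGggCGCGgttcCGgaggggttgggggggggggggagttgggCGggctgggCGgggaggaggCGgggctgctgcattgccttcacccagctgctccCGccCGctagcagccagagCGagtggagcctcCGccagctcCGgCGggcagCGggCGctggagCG

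The window of Isg20 held 1 CpG, that of Vav1 held 11 and that of Ngfr held 23. Over the 61 windows the median was 12 CpG, which lies below the median of 17 for 11652 genes on the array. Genes detected on every array had a median of 22 CpG (5784 windows) and genes detected on no array a median of 6 (3715 windows), so the 61 windows lie between these classes. The median GC content was 58.0% in the 61 windows, close to the 58.3% of all genes on the array, with 61.3% for genes detected on every array and 52.7% for genes detected on no array.

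The motif GAAANNGAAA, in which N is any base, is the core of the element that interferon regulatory factors bind. It was searched on both strands, and its reverse complement is TTTCNNTTTC. It was found in the windows of Foxi1 and Psmd9, which is 2 of 61 (3.28%), against 3.28% of all genes on the array. The window of Isg20 held no match. Cxcl11 and Tap2, which are also induced by interferon, are not among the 61 genes, and their windows were not searched. The motif TATAAA, read on the gene's strand, was in 7 windows (11.5%), against 7.83% of all genes on the array. Its share was 4.43% for genes detected on every array and 12.4% for genes detected on no array. A match is a match of letters and not a binding site.

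On B16-RIIL the S/N of the 183 probes ran from 6.0 to 43.1, with a median of 7.17 and quartiles of 6.41 and 8.86. Only 27 probes reached an S/N of 10, and 79 lay below 7. The probes just inside the limit were 9230106L14Rik and Tmem25, both at 6.0, and mCG22956.2 at 6.01. Just outside it were AK048151.1 at 5.98, AK014973.1 at 5.97 and AK076537.1 at 5.94. In all, 120 probes with the same pattern on the other arrays had an S/N from 5 to 6 in B16-RIIL, so no gap separates the chosen probes from the rest. Among the probes with a symbol, 14 reached an S/N of 10, among them Cxcl11 (43.1), Cadps2 (19.2), Vav1 (15.2), Foxi1 (14.5), Capn1 (13.8), A630056B21Rik (12.9), Arntl2 (12.0), Matn4 (11.5), Pygm (11.4), St6gal1 (11.3), B230207H15Rik (10.5), Psmd9 (10.2) and Polr2c (10.2). Cxcl11 stood far above the next, and the rest followed in small steps. On the other side, 39 of the 183 probes had an S/N below 1 in B16, B16-RI and B16-RII, and 79 had an S/N from 2 to 3 on at least 1 of these arrays.

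The normalized signal, the raw signal divided by 1 of 2 constants of the array, for 2 sets of probes, gives the size of each difference. No signal outside B16-RIIL was detected, so each fold rests on an undetected signal. The signal on B16-RIIL was divided by the higher of the probe's own signal on the other array and the lowest signal of any detected probe there. This lowest signal was 0.31 in B16, 0.42 in B16-RI and 0.37 in B16-RII. A fold is a lower bound only where the lowest detected signal was used. Elsewhere it is the ratio of the measured signals, and the words "at least" do not make it a bound. The median normalized signal of the 183 probes was 0.59 in B16, 0.67 in B16-RI, 0.61 in B16-RII and 2.22 in B16-RIIL. Of the 183, 115 (62.8%) were at least 2-fold above every other array, while 2.11% of the 31894 probes were, and 4.01% of the 14546 probes with an S/N below 3 in B16, B16-RI and B16-RII. The choice used the same arrays, so nothing is read from this difference. Only 39 probes were at least 4-fold above every other array and only 5 at least 8-fold. Another 56 lay from 1- to 2-fold above the highest other array, and 12 had a lower signal on B16-RIIL than on another array although their S/N was highest on B16-RIIL. These counts hold for the deposited values, and for some of the 12 probes the direction turned in the raw signal. The median of the smallest fold was 2.38. Of the 47 named genes that were at least 2-fold above every other array in the deposited values, 6 fell below 2-fold under at least 1 other scaling, and each is marked where its fold is given. Another 11 named genes, below 2-fold in the deposited values, passed 2-fold under at least 1 other scaling. For Ankrd17, C330008L01Rik, Ccrl1, Col17a1, Kcnn1, Piga and Slc2a9 this was so in the raw signal alone, at 2.05-fold to 2.52-fold. For Pygm (2.18-fold) and B3gnt7 (2.31-fold) it was so with the probe sets centred separately, and for Akr1c21 (2.09-fold) and 9830132G07Rik (2.01-fold) with median scaling. A fold below 2 was formed in the same way as the others. A set of 11604 probes was detected on all arrays, and over these the log2 signal of B16-RIIL differed by a median of 0.22 from B16, 0.02 from B16-RI and -0.17 from B16-RII. Differences of the size of these offsets cannot be told from the scaling.

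Among 7 secreted signals and receptors, Cxcl11 had the highest S/N and the largest smallest fold of all 183 probes. Cxcl11 is an interferon-induced chemokine that binds the receptor Cxcr3. Its normalized signal was 0.40 in B16, 1.05 in B16-RI, 0.47 in B16-RII and 19.7 in B16-RIIL, with S/N of -0.26, 2.22, 0.49 and 43.1 in the same order. It was at least 49.3-fold higher on B16-RIIL than on B16, at least 18.8-fold higher than on B16-RI and at least 41.9-fold higher than on B16-RII. The signals of B16, B16-RI and B16-RII all lie far below that of B16-RIIL.

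Gpr85, an orphan receptor of the brain, gave 0.27 in B16, 0.52 in B16-RI, 0.75 in B16-RII and 3.47 in B16-RIIL, at least 4.63-fold above the highest of the others. Trfr2 (now Tfr2), the iron-sensing transferrin receptor of liver, gave 0.49, 0.79, 0.95 and 3.63 in the same order, at least 3.82-fold above every other array. In both the signal of B16-RIIL stood clear of the undetected signals of the other lines. Ngfr gave 0.47 in B16, 1.01 in B16-RI, 1.5 in B16-RII and 4.34 in B16-RIIL, at least 2.89-fold above the highest of the others. B16-RIIL was the highest, and the other 3 signals, none of them detected, have no order that can be read. The membrane progestin receptor 1700019B16Rik (now Paqr8) was at least 2.03-fold above every other array, and 1.78-fold under 75th percentile scaling. The remaining 2 of the 7 fell short of 2-fold: Ccrl1 (now Ackr4), an atypical receptor that scavenges chemokines, at 1.54-fold and D13Wsu14e (now Prl5a1), of the prolactin family, at 1.17-fold.

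Of 5 immune genes, 4 were at least 2-fold above every other array. Vav1, which passes antigen receptor signals to small GTPases in blood cells, had the third highest S/N among the named genes, 15.2 in B16-RIIL against 1.49 in B16, 1.14 in B16-RI and 1.21 in B16-RII. Its normalized signal was 1.06 in B16, 0.73 in B16-RI, 0.60 in B16-RII and 2.61 in B16-RIIL, at least 2.46-fold above B16, a modest fold beside its S/N. Isg20, the interferon-induced exonuclease, gave 0.89, 0.80, 0.73 and 2.54 in the same order of arrays, at least 2.85-fold above every other array, and 1.99-fold when the probe sets were centred separately. Cd8b (now Cd8b1), a co-receptor chain of cytotoxic T cells, gave 0.31, 0.35, 0.37 and 1.46, at least 3.48-fold. The probes of Isg20 and Cd8b had S/N of 8.60 and 6.61 in B16-RIIL, in the lower range of detection. Tap2, a subunit of the transporter that loads peptides for MHC class I, gave 0.70, 0.72, 1.53 and 2.95, and stood 1.93-fold above B16-RII.

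Of 12 genes of transcription, chromatin and RNA, 6 were at least 2-fold above every other array. Foxi1, a forkhead factor of ion-transporting epithelial cells that include the ionocytes of the airway, gave normalized signals of 0.59 in B16, 0.73 in B16-RI, 0.47 in B16-RII and 5.95 in B16-RIIL. It was at least 8.15-fold above every other array with an S/N of 14.5, and is 1 of the 5 probes of the 183 past 8-fold. Arntl2, a partner of Clock in the circadian clock, gave 0.49, 0.62, 0.39 and 2.61 in the same order, at least 4.21-fold. Both probes were near the floor on all arrays but that of B16-RIIL. Polr2c, a subunit of RNA polymerase II, gave 0.44, 0.60, 0.53 and 2.74 in the chosen probe, at least 4.57-fold. Nr1i3, a nuclear receptor of liver that senses foreign compounds, gave 0.80, 0.63, 0.47 and 2.71, at least 3.39-fold. The others past 2-fold were Rbm3, a cold-induced RNA-binding protein (at least 3.28-fold), and Lmcd1 (at least 2.29-fold). Polr2c and Rbm3 each had another probe, detected on every array, whose signal on B16-RIIL was not 2-fold above any other array. That of Rbm3 was lowest on B16-RIIL.

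Snai2, a zinc finger repressor of neural crest cells and of epithelial-mesenchymal transition, gave 1.20 in B16, 0.85 in B16-RI, 0.46 in B16-RII and 1.67 in B16-RIIL. Its S/N was 2.59 in B16 and 6.56 in B16-RIIL, and its signal was at least 1.39-fold higher on B16-RIIL than on B16. Rorb, a nuclear receptor of retina and brain, gave 0.73, 1.93, 3.77 and 4.97 in the order of the lines, with an S/N of 2.9 in B16-RII, just under the limit. The zinc finger gene A630056B21Rik (now Zfp574) had an S/N of 12.9 in B16-RIIL and 2.28 in B16-RI, but its normalized signal was 1.34 in B16-RIIL and 1.37 in B16-RI. The direction of this small difference turned under other scalings. Nr2f6, an orphan nuclear receptor, was 1.05-fold above B16-RII, but its raw signal on B16-RIIL was 0.88 of that on B16-RII. The zinc finger genes 3732412P20Rik (now Zfp455) and 9830132G07Rik (now Zbtb41) were 1.44-fold and 1.93-fold above the highest other array.

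Of 10 genes of cell adhesion, cytoskeleton and matrix, 6 were at least 2-fold above every other array. Matn4, a matrix protein of the matrilin family, gave normalized signals of 0.53 in B16, 0.75 in B16-RI, 0.71 in B16-RII and 6.21 in B16-RIIL, at least 8.28-fold above every other array with an S/N of 11.5. It led the group by fold. The others past 2-fold included Fmnl1, a formin of leukocytes, which was at least 3.42-fold above every other array. Epb4.1l3 (now Epb41l3), which links membrane proteins to actin and spectrin, was at least 2.37-fold above, Pkp3, a plaque protein of desmosomes, at least 2.34-fold, and Mamdc2 at least 2.10-fold. Col17a1, the collagen of hemidesmosomes, gave 1.04, 0.40, 0.61 and 1.98 in the order of the lines, 1.90-fold above B16. Col2a1, the collagen of cartilage, had an S/N of 9.30, but its signal of 1.41 in B16-RIIL was close to that of 1.4 in B16-RI, and the direction of this difference turned under other scalings. Kirrel1 (now Kirrel), an adhesion protein of the immunoglobulin superfamily, and Tmsb4x, which binds actin monomers, were 1.25-fold and 1.09-fold above the highest other array.

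The largest class held 13 enzymes and metabolic genes, of which 9 were at least 2-fold above every other array. Ppia, which encodes cyclophilin A, gave 0.66 in B16, 0.42 in B16-RI, 0.85 in B16-RII and 5.25 in B16-RIIL in the chosen probe, at least 6.18-fold. The other probes of Ppia were detected on every array and did not share this difference. B230207H15Rik (now Me3), a mitochondrial malic enzyme, gave 0.24, 0.39, 0.78 and 4.2, at least 5.38-fold. These 2 had the largest folds of the class. Rbp7, which binds retinol inside the cell, gave 0.33, 0.50, 0.33 and 1.85, at least 3.70-fold. Capn1, a calcium-dependent protease, gave 0.40, 0.39, 0.47 and 1.67, at least 3.55-fold. In both Rbp7 and Capn1 the lines other than B16-RIIL lay close together. Gstt2, a glutathione transferase, was at least 2.51-fold above every other array, and 1.75-fold with the probe sets centred separately. Psmd9, an assembly chaperone of the proteasome, gave 0.76, 1.75, 0.54 and 4.16, at least 2.38-fold above B16-RI. Nags, which makes the activator of the urea cycle, was at least 2.25-fold above every other array and Pde1c, a phosphodiesterase of cyclic nucleotides, at least 2.06-fold, which became 1.75-fold under 75th percentile scaling. St6gal1, which adds sialic acid to glycoproteins, gave 0.68, 0.70, 1.10 and 2.45, at least 2.23-fold above B16-RII, the nearest line, and 1.86-fold in the raw signal. The 4 others were Akr1c21 at 1.93-fold, B3gnt7 at 1.73-fold, Pygm, the glycogen phosphorylase of muscle, at 1.63-fold, and Piga, which starts the synthesis of GPI anchors, at 1.57-fold.

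Of 8 channels and transporters, 5 were at least 2-fold above every other array. Kcne3, an accessory subunit of potassium channels, led them with 1.45 in B16, 0.97 in B16-RI, 0.67 in B16-RII and 5.11 in B16-RIIL, at least 3.52-fold above B16. Pr1 (now Tmem37) was at least 3.20-fold above every other array, AA117069 (now Slc44a5) at least 3.11-fold, 9630025I22Rik (now Mfsd6) at least 2.47-fold and C80638 (now Slc9b2), a sodium and proton exchanger, at least 2.04-fold, or 1.90-fold under 75th percentile scaling. The small-conductance potassium channel Kcnn1, the urate transporter Slc2a9 and Slc23a3 stood 1.74-fold, 1.59-fold and 1.48-fold above the highest other array.

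Of 3 neuronal genes, 1 was at least 2-fold above every other array. Cadps2, which primes dense-core vesicles for release, had the second highest S/N of all, 19.2, and gave 0.47 in B16, 0.36 in B16-RI, 0.45 in B16-RII and 2.52 in B16-RIIL, at least 5.36-fold. The photoreceptor cilium gene Rpgrip1 gave 0.69, 0.56, 2.20 and 1.21, so its signal was higher on B16-RII than on B16-RIIL although its S/N was 2.97 in B16-RII and 6.08 in B16-RIIL. The tau kinase C330008L01Rik (now Ttbk1) was 1.55-fold above B16. Svs2, a protein of seminal vesicle fluid, was at least 4.39-fold above every other array.

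Olfactory and vomeronasal receptors, which detect odours and pheromones in the nose, gave 5 probes, all at least 2-fold above every other array. Olfr784 gave 0.44 in B16, 0.45 in B16-RI, 0.44 in B16-RII and 3.67 in B16-RIIL, at least 8.16-fold. The other 4 were Olfr1305 at least 4.4-fold, V1ra5 (now Vmn1r43) at least 3.83-fold, Olfr705 at least 3.35-fold and Olfr593 at least 3.33-fold. Their S/N on B16-RIIL lay between 6.13 and 7.85. The 5 are 6.58% of the 76 named probes, close to the 5.27% that olfactory, vomeronasal and taste receptors hold among all probes with a symbol. On B16-RIIL 13.3% of the 911 probes for such receptors were detected, against 55.8% of all probes with a symbol.

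The last 12 genes have other functions or none that was assigned, and 5 of them were at least 2-fold above every other array. These were BC028975 (now Wdr78) at least 4.07-fold, Myct1 at least 2.98-fold, Fbxo17 at least 2.83-fold, Cpxm2 at least 2.52-fold and 9230106L14Rik (now Wfdc15b) at least 2.16-fold. Ankrd17, 4930434E21Rik (now Wdr95), Tmem25 and 2810032G03Rik stood from 1.17-fold to 1.75-fold above the highest other array. For D830050J10Rik, BC025872 (now Rcsd1) and Gdpd4, listed under a clone name, the signal on B16-RIIL was below that on B16-RI, at 0.93, 0.93 and 0.85 of it. For BC025872 and Gdpd4 this direction turned in the raw signal, at 1.23-fold and 1.09-fold above the highest other array.

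Among the 107 probes without a symbol, the largest smallest fold was that of mCG4193.2, named here after its values were seen. It gave 0.60 in B16, 0.60 in B16-RI, 0.35 in B16-RII and 5.14 in B16-RIIL, at least 8.57-fold. AK015676.1 had the highest S/N of these probes, 19.0 in B16-RIIL, and gave 0.46, 0.48, 1.34 and 5.66 in the order of the lines. mCG20310.2 gave 1.48, 0.87, 0.72 and 10.2. All 3 were at least 4-fold above every other array, as were 14 of the 76 probes with a symbol, while 47 of the 76 were at least 2-fold above.

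The same rule was turned to each of the other arrays, with an S/N of at least 6 there and below 3 on the rest. It chose 165 probes in B16 (0.517%), 100 in B16-RI (0.314%) and 147 in B16-RII (0.461%), so B16-RIIL had the highest count and B16-RI the lowest. The share at least 2-fold above every other array was 78.8% in B16, 90.0% in B16-RI and 64.6% in B16-RII, against 62.8% in B16-RIIL. The median S/N was 7.56 for the probes of B16, 7.64 for those of B16-RI, 7.21 for those of B16-RII and 7.17 for those of B16-RIIL. The median smallest fold was 3.31 in B16, 4.80 in B16-RI, 2.40 in B16-RII and 2.38 in B16-RIIL. The largest smallest fold was 44.9, 37.3 and 39.8 in B16, B16-RI and B16-RII, so the 18.8 of Cxcl11 was the lowest of these maxima. Receptors of smell, pheromones and taste held 7.04% of the named probes in B16, 20.9% in B16-RI and 8.57% in B16-RII. The number of detected probes was 14375 in B16, 13872 in B16-RI, 14756 in B16-RII and 14855 in B16-RIIL, and the median raw signal was 435, 451, 619 and 554. B16-RI had the fewest detected probes and B16-RIIL the most, as in the counts of the rule, and the part of overall detection in these counts was not tested.

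For 9 of the 76 named genes the array carried other probes, 11 in all, matched through the current gene name. None of the 11 was detected on B16-RIIL alone. In 7 of the 9 genes another probe was detected on every array. Ppia had 2 such probes, with S/N of 81.3 to 98.2 on the 4 arrays, while its chosen probe had an S/N of -0.07, -0.18, 0.55 and 7.64 in B16, B16-RI, B16-RII and B16-RIIL. The normalized signals of these 2 probes were 3117, 4440, 3248 and 3395, and 2553, 3678, 3220 and 3361, in the same order, so B16-RI was highest in both. Rbm3 had another probe with S/N of 109 in B16, 104 in B16-RI, 100.4 in B16-RII and 66.9 in B16-RIIL. Its normalized signal was 1448, 1592, 1856 and 1314, and B16-RIIL was the lowest. The other probe of Polr2c had S/N of 81.8, 83.5, 93.2 and 103 and normalized signals of 82.6, 114.95, 123 and 139. There B16-RIIL was the highest, by less than 2-fold over each of the others. By these probes the genes Ppia, Rbm3 and Polr2c were detected in all 4 lines. The same held for Kirrel1, with 26.1, 30.3, 35.8 and 58.1, for Ankrd17, for 9630025I22Rik and for C330008L01Rik, whose file entry has 2 probes and whose current gene has 1 more. In Cd8b and Fbxo17 the other probe was detected on no array: that of Cd8b had S/N of -1.18, -1.64, 0.35 and -0.91, and that of Fbxo17 had -0.82, -0.33, 0.73 and 1.97.

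Of the genes without a symbol, 10 had 23 other probes, of which 0 reached an S/N of 3 in B16-RIIL and 15 reached detection on no array. One of these genes was mCG4193.2, whose other probe had an S/N of 3.09 in B16 and 0.18 in B16-RIIL. Under the same rule on the other arrays, another probe of the gene was detected on that array alone for 2 of 6 named genes in B16, for 0 of 5 in B16-RI and for 0 of 13 in B16-RII. Cxcl11, Foxi1, Matn4 and Cadps2 have a single probe each, so no other probe bears on them.

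To count genes of lung and host cells, 6 marker lists were used, for lung epithelium, endothelium, fibroblasts, macrophages and granulocytes, lymphocytes and blood, with 85 genes of which 77 had a probe. The 183 probes held 0 of these genes. The rule chose only 0.574% of all probes with flags in the limit. At so low a share a count of 0 in 77 genes does not show their absence. Of the 77, 46 were detected on no array, and 19 were detected in B16, 15 in B16-RI, 16 in B16-RII and 23 in B16-RIIL. In the lung list, Abca3, Cdh1, Cyp2f2, Epcam, Foxj1, Krt8, Pdpn and Scgb1a1 were detected on B16-RIIL, with S/N from 3.71 to 6.71, and 12 genes, the surfactant genes Sftpc and Sftpd among them, on no array. The surfactant gene Sftpb was detected on B16 alone, with an S/N of 3.92. In the lymphocyte list, Cd3g and Cd3e were detected on B16-RIIL and the leukocyte gene Ptprc on no array. By list, the genes detected on B16-RIIL were 8 of 24 for lung epithelium, 4 of 13 for endothelium, 3 of 11 for fibroblasts, 1 of 12 for macrophages and granulocytes, 6 of 11 for lymphocytes and 1 of 6 for blood. Of all probes 45.0% were detected on B16-RIIL, and of all probes with a symbol 55.8%. The lung epithelium list had 6 detected genes in B16 and 5 each in B16-RI and B16-RII, and the lymphocyte list had 3, 4 and 3. In these lists B16-RIIL had the most, by 2 genes. In the order of the lines, the endothelium list had 2, 2, 3 and 4 detected genes, the fibroblast list 4, 2, 3 and 3, the macrophage and granulocyte list 3, 1, 2 and 1 and the blood list 1, 1, 0 and 1. B16 had the most in the fibroblast and the macrophage and granulocyte lists. The summed normalized signal of the lung epithelium list was 23.5 in B16, 28.0 in B16-RI, 24.98 in B16-RII and 29.0 in B16-RIIL, and that of the lymphocyte list 65.8, 78.3, 92.8 and 71.9. In the endothelium list it was 20.2, 16.2, 20.9 and 21.7, in the fibroblast list 18.7, 26.0, 16.4 and 26.7, in the macrophage and granulocyte list 13.3, 14.2, 11.1 and 11.7, and in the blood list 7.43, 9.63, 5.96 and 8.02. The sum of B16-RIIL was highest in the lung, endothelium and fibroblast lists, and in each list it was less than 2-fold above the lowest of the other sums. A few abundant genes carry these sums, and Col1a2 alone gave 16.7 of the 26.7 of the fibroblast list in B16-RIIL. The median log2 difference from B16 over the genes of a list was lower in B16-RIIL than in B16-RI in all 6 lists. It was -0.02 in B16-RIIL and 0.16 in B16-RI for lung epithelium, 0.19 and 0.43 for endothelium and -0.45 and 0.74 for fibroblasts. Against B16-RII the median of B16-RIIL was higher in every list but that of fibroblasts. In B16-RII it was -0.13 for lung epithelium, 0.09 for endothelium and 0 for fibroblasts. The melanocyte list held none of the 183 probes either, from which nothing is read, and 10 of its 11 measured genes were detected on every array.

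With the limit on B16-RIIL lowered to an S/N of 3, the rule chose 1151 probes (3.61%), and 5 were genes of the lists. These were Scgb1a1, the secretoglobin of airway club cells (S/N 4.88), the T cell receptor complex genes Cd3g (3.77) and Cd3e (3.16), the matrix gene Lum of fibroblasts (3.58) and Prox1 of lymphatic endothelium (3.33). A further gene of the lung list, Cyp2f2, also of club cells, had an S/N of 3.98 in B16-RIIL and normalized signals of 0.37 in B16, 0.46 in B16-RI, 0.44 in B16-RII and 3.08 in B16-RIIL, and was left out by the rule because its flag in B16-RI was over the limit. Scgb1a1 gave normalized signals of 1.32 in B16, 1.28 in B16-RI, 1.15 in B16-RII and 2.59 in B16-RIIL. Cd3e and Prox1 each had another probe that was detected on no array. By the same rule, B16 also held 5 list genes (Aqp5, C1qa, Csf1r, Postn and Sftpb, of which 2 are in the lung list), B16-RI held 1 (Krt19) and B16-RII 1 (Csf1r, by another probe), beside 3.30%, 2.50% and 2.96% of all probes. B16 and B16-RIIL were equal in this count. Counted by gene, over all its probes and with the flag limit set for each array separately, the genes detected on 1 array alone were 4 in B16 (without Csf1r), 1 in B16-RI, 1 in B16-RII (Napsa) and 6 in B16-RIIL (with Cyp2f2).

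Beyond the lists, 9 of the 76 named genes are best known from blood cells, epithelium or endothelium, a grouping made after their values were seen and limited to these cell types. The share of such genes among all probes with a symbol was not counted, so 9 cannot be read as many or few. Genes described above by another organ, such as Trfr2, Nr1i3, Pygm, Col2a1 and Svs2, are not in it. Blood cells account for 5 of them (Vav1, Fmnl1 and Cd8b among them), epithelia for 3 (Foxi1, Pkp3 and Col17a1) and endothelium for 1 (Myct1). Foxi1, Pkp3 and Col17a1 are found in the epithelium of several organs, the airway among them. Whether cells of the host were present in the culture was not tested.

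Because Cxcl11, Isg20 and Tap2 are all induced by interferon, 14 genes of this response were examined, a list made after the values of these 3 were seen. The 14 genes had 16 probes, and 4 genes were detected in B16, 5 in B16-RI, 5 in B16-RII and 8 in B16-RIIL. The choice of the probes put Cxcl11, Isg20 and Tap2 on B16-RIIL alone, and without them the counts were 4, 5, 5 and 5 of 11 genes. Of these 11 genes, 1 was detected on B16-RIIL alone, beside 3.61% of all probes. It was Tap1, the partner of Tap2, with an S/N of 5.32 and normalized signals of 0.91 in B16, 0.36 in B16-RI, 0.66 in B16-RII and 1.41 in B16-RIIL. The chemokine Cxcl10, whose gene lies next to that of Cxcl11 in a cluster, had another pattern, with 61.6 in B16, 254 in B16-RI, 289 in B16-RII and 213 in B16-RIIL. The third chemokine of this cluster, Cxcl9, was detected on no array, nor was Cxcr3, the receptor that the chemokines share.

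Irf1, a transcription factor of the interferon response, gave 6.65 in B16, 4.43 in B16-RI, 8.67 in B16-RII and 8.43 in B16-RIIL. Isg15, in its detected probe, gave 4.94, 4.62, 6.57 and 7.46 in the same order. Irf1 was highest in B16-RII and Isg15 in B16-RIIL, and for both genes the values of B16-RII and B16-RIIL lay near each other. Psmb8, Psmb9 and Irf7 were not detected on B16-RIIL, with S/N of 1.21, -0.40 and 1.67.

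All 76 named genes have a chromosome in the RefSeq table. Chromosome 7 held 10 of them (13.2%, against 8.72% of all matched probes), chromosome 1 held 9 (11.8% against 5.76%) and chromosome 6 held 8 (10.5% against 5.55%). Each of these shares rests on 8 to 10 genes, and no test was made. Some of the genes lie close together: Capn1 and Pygm are 0.396 Mb apart on chromosome 19, Kcnn1 and Nr2f6 are 0.531 Mb apart on chromosome 8, and 9230106L14Rik, Svs2 and Matn4 follow each other on chromosome 2 at distances of 0.0215 and 0.153 Mb. In the chromosome 2 group the smallest folds were at least 2.16, 4.39 and 8.28, in that order, so all 3 genes were past 2-fold. In the other groups 1 gene was past 2-fold in the first (Capn1) and none in the second. Of all 183 probes, 62.8% were past 2-fold. How often genes on the array lie this close was not counted, so nothing is read from these groups.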

How the data were processed

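RNA of 4 mouse melanoma lines was hybridized to mouse whole-genome arrays of Applied Biosystems read by chemiluminescence, with 1 array per line in the labels. The methods describe duplicates, whereas the labels give 1 sample per line. The authors deposited raw and normalized intensity, and S/N and flag scores of the analyzer. The normalized intensity equals the raw intensity divided by 1 of 2 constants per array, for 2 sets of probes, although the methods name quantile normalization. Of 60 value columns 16 were used. The 44 not used were 30 of second arrays that match no sample of the labels, 20 of them per-sample values, and 14 of ratios and log2 values derived from the arrays used, whose values are not given.

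Detection was an S/N of at least 3 with a flag of at most 5000, the limits of the methods. No pseudocount was added, and folds used the detection floor of each array. The members, gene lists and alternatives were chosen with earlier results of these data known. Functional classes, host sites and the interferon list were assigned after the values were seen. Named genes were the 25 with the highest S/N, members of marker lists or with other probes, those beside the limit, and up to 6 more per class. Further genes named in the class paragraphs were added after their values were seen. Some genes of the set and of the interferon list are not reported here. Names, chromosomes and promoters came from RefSeq (GRCm38.p6). The file names no genome build. The number of arrays limits the precision. Alternatives were other S/N and flag limits, other fold limits and other scalings. The work was done in Python 3.11.15 with the packages pandas 2.3.3, numpy 2.4.6 and scipy 1.17.1.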

Additional observations from a re-analysis of the deposited data

How the results depend on the processing

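With an S/N of at least 3 in place of 6 on B16-RIIL, 1151 probes were chosen, of which 504 had a symbol, 415 were at least 2-fold above every other array, 5 were genes of the lung or host lists and 42 had another probe of the gene detected on B16-RIIL. With an S/N of at least 10 these counts were 27, 14, 23, 0 and 1. With an S/N below 2 on the other arrays 104 probes were left, 39 with a symbol and 2 with another probe of the gene detected on B16-RIIL. At a 4-fold limit 39 probes were above every other array. Under the other scalings and the raw signal, an alternative added after the data were seen, the probes at least 2-fold above numbered 109 to 130. Among the 25 named genes with the highest S/N, a change of direction was seen in A630056B21Rik and Col2a1. For A630056B21Rik the smallest log2 fold was -0.032 in the deposited values, 0.015 with quantile normalization, 0.020 with median scaling and 0.32 in the raw signal. For Col2a1 it was 0.010 in the deposited values, -0.021 with 75th percentile scaling and -0.11 when the probe sets were centred separately. Outside these 25, the ratio to the highest other array also turned in the raw signal for Nr2f6 (0.88), BC025872 (1.23) and Gdpd4 (1.09). The cause of the reversals was not tested. Among 125 values of 25 named genes, 120 kept their direction and their size within the limit used, and the largest shift was 0.52 on the log2 scale. Of the 47 named genes past 2-fold, 6 fell below 2-fold under at least 1 scaling. These were 1700019B16Rik (1.94-fold with quantile normalization, 1.78-fold with 75th percentile scaling), Pde1c (1.97-fold and 1.75-fold in the same order), C80638 (1.90-fold with 75th percentile scaling), Gstt2 and Isg20 (1.75-fold and 1.99-fold with the probe sets centred separately) and St6gal1 (1.86-fold in the raw signal). A probe near the detection floor has little signal over background, which limits its fold. No paired analysis was possible because the labels give 1 sample per line.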
